A study of Citrus junos with 4 samples.

Results

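Class III peroxidases are the plant enzymes that the description of a gene names as a numbered peroxidase, a cationic peroxidase or a lignin-forming anionic peroxidase. Of the 29406 genes in the table, 77 carried such a description, after 15 genes whose description also named ascorbate peroxidase, glutathione peroxidase or peroxiredoxin had been left out. The descriptions list proteins of other species that resemble the gene, so a name such as Peroxidase 47 stands for the first peroxidase in that list and not for a tested orthologue. Among the 77 genes, Cs7g06700 led with lariat debranching enzyme, a protein of RNA splicing, and had Peroxidase 18 only as a further match. It was kept as the rule has it, and the main counts are also given without it, for 76 genes.

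Leaves of diploid Ziyang xiangcheng (2×), a *Citrus junos* rootstock, were compared with leaves of its spontaneous doubled diploid (4×) by RNA-seq. Each ploidy was represented by 2 libraries, called here 2×-1, 2×-2, 4×-1 and 4×-2, and the leaves of 4 plants went into each of them, so single plants were not measured. The plants were seedlings grown in a greenhouse without treatment, and the leaves were fully expanded, 3 to 5 months old, and were the fourth or the fifth counted down the plant. At the microsatellite markers typed in the paper, the 4× plants and the 2× plants kept for study carried the same alleles. From this the paper concluded that the 4× plants arose by doubling of the 2× genotype. The groups differ in chromosome number, and alleles elsewhere in the genome were not compared.

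Class III peroxidases are heme enzymes that plant cells secrete to the cell wall or send to the vacuole. They use hydrogen peroxide to oxidise phenolic compounds, and in this way couple lignin and suberin units and cross-link wall proteins such as extensins. The same enzymes can also form reactive oxygen species, and plant genomes hold large families of them whose members are often active in roots, in vessels or after wounding rather than in the leaf blade.

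Levels are given as RPKM, which scales the reads of a gene to its length (1 kb) and to the size of its library. The totals behind the values were 8874306 to 9545185 reads per library, and 1 read in a gene of 1 kb was worth 0.105 to 0.113 RPKM. The leaf label was borne out by its markers, since the 17 genes for chlorophyll a-b binding proteins and the small chain of Rubisco summed to between 15111 and 18491 RPKM and none of them was listed at 0. Genes that averaged 1 RPKM or more numbered 16157, and 224 of them (1.39%) passed an adjusted p of 0.05 between 4× and 2× in limma with Benjamini-Hochberg adjustment. Of these, 160 (0.990%) were lower and 64 (0.396%) higher in 4×, and after another scaling of the libraries (median of ratios) the split was 109 lower and 69 higher.

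The class was carried by a few genes in these leaves. Reads were found for 59 of the 77 genes in at least 1 library and for 36 in every library, while 18 genes (23.4%) were at 0 throughout, against 18.1% of all genes in the table. A mean of at least 1 RPKM, the limit for testing, was reached by 22 members (28.6%), against 54.9% of all genes. Only 8 members reached 10 RPKM and 2 members reached 100 RPKM. Without Cs7g06700, 58 of 76 genes were detected, 35 of them in every library, 21 (27.6%) were tested and 7 reached 10 RPKM.

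The most abundant member was orange1.1t02046, whose first match was Peroxidase 15, an anionic peroxidase first described in sweet potato. It stood at 162 and 139 RPKM in the 2× libraries and at 179 and 141 RPKM in the 4× libraries. The values of the 2 ploidies overlapped, and the difference of 0.08 on the log2(RPKM + 0.5) scale (SE 0.14, limma adjusted p = 0.88) had a 95% interval from −0.24 to 0.39.

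Close behind was Cs2g03110, matched to Peroxidase 42, which in Arabidopsis is among the most widely expressed members of the family. Its levels were 138 and 136 RPKM in 2× and 142 and 123 RPKM in 4×. Again the libraries overlapped, with a log2 difference of −0.05 (SE 0.113, limma adjusted p = 0.9). Together these 2 genes held 65.9% and 63.5% of the summed RPKM of the 76 peroxidases in 2×-1 and 2×-2, and 66.9% and 67.4% in 4×-1 and 4×-2.

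**Figure D1:**
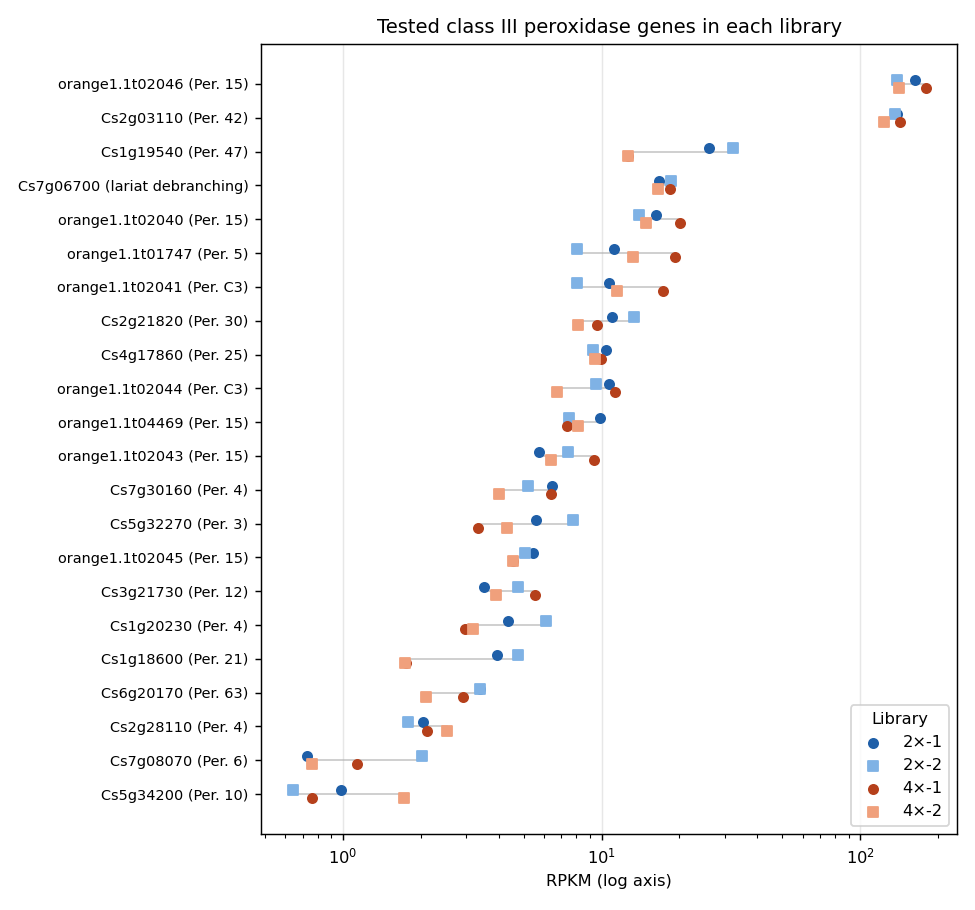
RPKM on a log axis of the 22 tested members in each of the 4 libraries, ordered by mean level (blue, 2×; red, 4×; circles, replicate 1; squares, replicate 2). Genes orange1.1t02046 and Cs2g03110 stand above 100 RPKM in every library, and Cs1g19540 is the member with the widest gap between the 2× pair and the 4× pair among those above 10 RPKM.

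Between 4× and 2×, 2 of the 22 tested members passed the test, both lower in 4×. In limma 0 members were called higher, with 2 at an unadjusted p below 0.05 and 0 by voom on the recovered reads. That is 9.09% of the tested members, beside 1.39% of all tested genes, and rests on 2 genes (9.52% of 21 without Cs7g06700). At an unadjusted p below 0.05 there were 7 members in all (31.8%), 5 lower and 2 higher in 4×, beside 13.3% of all tested genes. In pooled leaf tissue, fewer cells of a type and less RNA per cell cannot be told apart.

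The clearer of the 2 was Cs1g19540, matched to Peroxidase 47, which in Arabidopsis takes part in the lignification of vessels. It measured 26 RPKM in 2×-1, 32.3 in 2×-2, 12.7 in 4×-1 and 12.7 in 4×-2, a mean of 29.2 ± 4.46 (SD, n = 2) against 12.7 ± 0.012 (SD, n = 2). The 4× pair lay well below the 2× pair and agreed closely with itself, so that the gene was 2.29-fold higher in 2×.

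On the log2 scale Cs1g19540 fell by 1.16 (SE 0.133, 95% interval −1.46 to −0.86, limma adjusted p = 0.0051). Behind these values were 320 and 407 reads in 2× and 157 and 149 reads in 4×, which give a ratio of 0.436 with an exact binomial 95% interval of 0.38 to 0.498 for counting error only. The call held with each of the 4 libraries left out in turn, at adjusted p from 0.00434 to 0.0358, and was lost only without the filter on low values, at 0.202. By level the gene ranked 3 among the 76 peroxidases in both 2× libraries, and 6 and 5 in 4×-1 and 4×-2.

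The other called member, Cs1g18600, was matched to Peroxidase 21 and was expressed at a much lower level. It measured 3.94 and 4.76 RPKM in 2×, and 1.76 and 1.74 RPKM in 4×, or 4.35 ± 0.58 against 1.75 ± 0.00865 (SD, n = 2 each). Every 4× value was below every 2× value, with a mean 2.49-fold higher in 2×. The log2 difference was −1.10 (SE 0.211, 95% interval −1.58 to −0.63, limma adjusted p = 0.0427).

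Only 38 and 47 reads in 2× and 17 and 16 reads in 4× stood behind Cs1g18600, a read ratio of 0.402 with a counting interval of 0.26 to 0.607. Its call was lost with any of the 4 libraries left out, namely 2×-1 (adjusted p = 0.106), 2×-2 (0.209), 4×-1 (0.0527) or 4×-2 (0.0725), and also under median-of-ratios scaling (0.0516) and without the filter (0.268). The direction was the same in all of these fits. A second member with Peroxidase 21 as first match, Cs6g04560, had 4 reads in 2× and 2 in 4×, a read ratio of 0.517 with a counting interval of 0.0468 to 3.61.

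**Figure D2:**
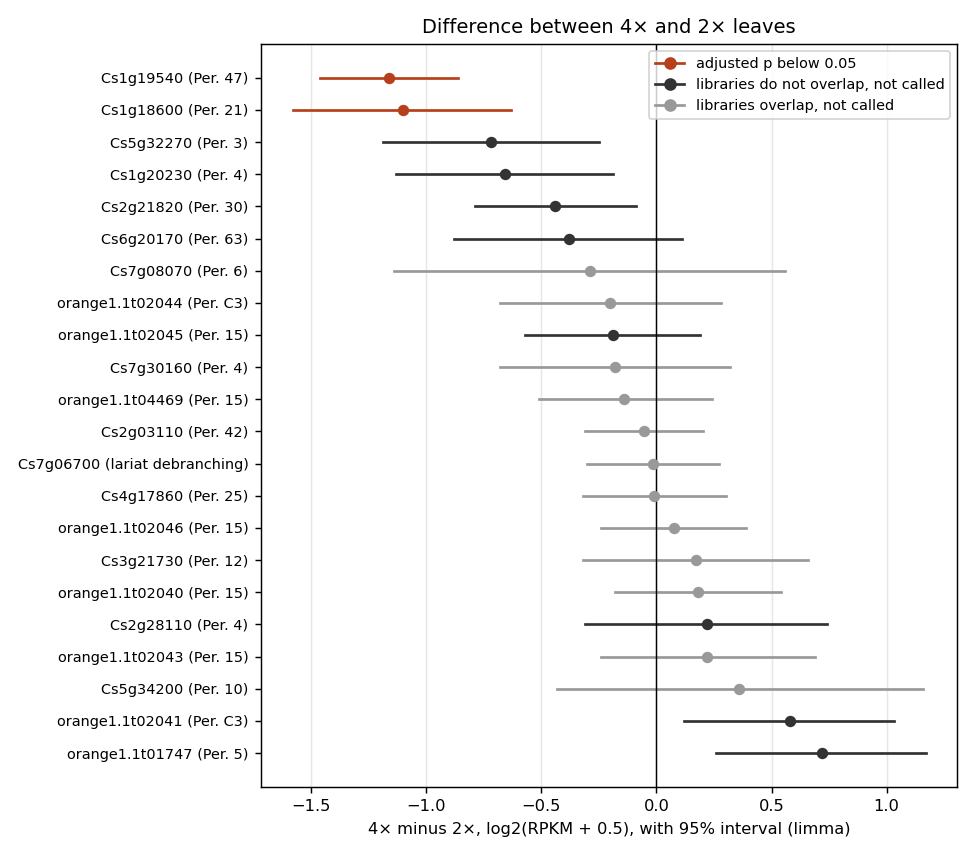
Difference between 4× and 2× in log2(RPKM + 0.5) for the 22 tested members, with the 95% interval of the limma fit (red, adjusted p below 0.05; black, libraries do not overlap but not called; grey, libraries overlap). The differences run from −1.16 for Cs1g19540 to 0.72 for orange1.1t01747, and 15 of the 22 intervals include 0.

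Groups that do not overlap were common and were no mark of the family. In 10 of the 22 tested members (45.5%) the 4× pair was wholly above or wholly below the 2× pair, beside 43.7% of all tested genes (10 of 21, or 47.6%, without Cs7g06700). Of these 10 members 7 were lower and 3 higher in 4×. The 7063 such genes among all tested genes also leaned to the lower side, with 4230 lower and 2833 higher. After the 2 called genes, the next 3 in size on the lower side were Cs5g32270, Cs1g20230 and Cs2g21820, none of which passed the test.

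Cs5g32270, matched to Peroxidase 3, a cold-induced root peroxidase in Arabidopsis, measured 5.6 and 7.74 RPKM in 2× and 3.33 and 4.33 in 4×. The log2 difference was −0.72 (SE 0.208, limma adjusted p = 0.147). The lower 2× value and the higher 4× value were closer to each other than the 2× libraries were among themselves.

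Cs1g20230, with Peroxidase 4 as first match, a lignin-related peroxidase in Arabidopsis, measured 4.34 and 6.11 RPKM in 2× and 2.96 and 3.2 in 4× (log2 difference −0.66, SE 0.208, limma adjusted p = 0.181). Cs2g21820, matched to Peroxidase 30, measured 11 and 13.4 RPKM in 2× and 9.63 and 8.12 in 4× (log2 difference −0.44, SE 0.156, limma adjusted p = 0.247). In both genes the pairs were set apart without overlap, and in both the 2×-2 library was the highest of the 4. Cs6g20170 (Peroxidase 63) and orange1.1t02045 (Peroxidase 15) were also lower in both 4× libraries, by 0.38 and 0.19 on the log2 scale, with intervals that include 0.

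On the higher side stood orange1.1t01747, matched to Peroxidase 5, and orange1.1t02041, matched to Peroxidase C3, a peroxidase of horseradish. The former measured 11.2 and 8.05 RPKM in 2× and 19.2 and 13.2 in 4×, a mean of 9.62 ± 2.22 against 16.2 ± 4.28 (SD, n = 2 each). Both of its 4× values were above both 2× values, and the 4× pair itself was spread 1.46-fold. The log2 difference of 0.72 (SE 0.202, 95% interval 0.26 to 1.17) had a limma adjusted p of 0.137, and it depended on the library left out. Without 4×-2 it was 0.98 at an adjusted p of 0.0386, without 2×-1 0.94 (0.114), without 2×-2 0.49 (0.426) and without 4×-1 0.45 (0.352).

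Gene orange1.1t02041 measured 10.7 and 8.05 RPKM in 2× and 17.3 and 11.5 in 4×. It had the same order of libraries as orange1.1t01747, with 4×-1 the highest and 2×-2 the lowest. The log2 difference was 0.58 (SE 0.203, 95% interval 0.12 to 1.03, limma adjusted p = 0.244), and it ran from 0.29 without 4×-1 and 0.38 without 2×-2 to 0.86 without 4×-2. The third gene on this side, Cs2g28110, was a low one at 2.05 and 1.79 RPKM in 2× and 2.11 and 2.52 in 4× (log2 difference 0.22, limma adjusted p = 0.775).

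**Figure D3:**
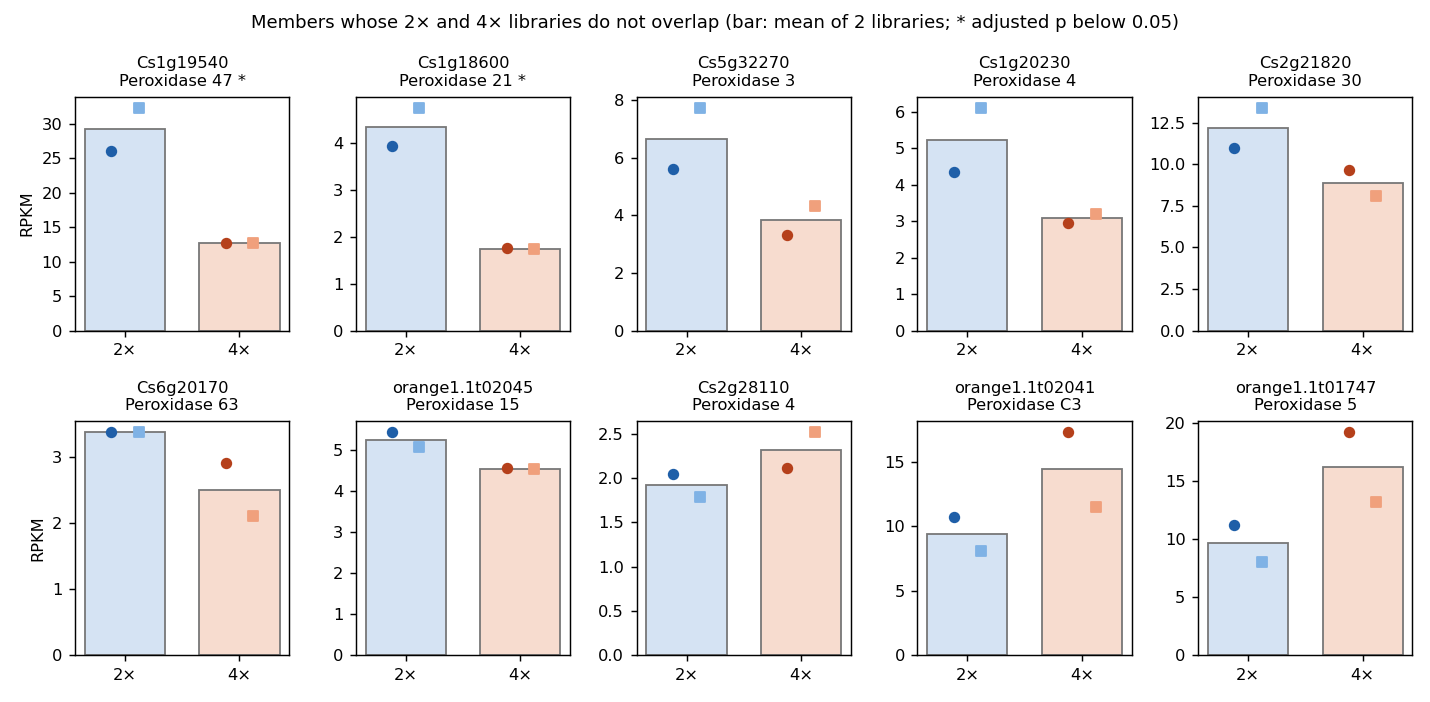
RPKM of the 10 tested members whose 2× and 4× libraries do not overlap, with bars for the mean of 2 libraries and points for each library (circles, replicate 1; squares, replicate 2; each panel has its own axis from 0). The 2 members marked with an asterisk, Cs1g19540 and Cs1g18600, have a 4× pair that nearly coincides, whereas the 4× points of orange1.1t01747 and orange1.1t02041 lie far apart.

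Across the 22 tested members the differences were spread to both sides. There were 14 negative and 8 positive values, with a median of −0.10 on the log2 scale, beside −0.027 for all tested genes. Without Cs7g06700 there were 13 negative and 8 positive values, with a median of −0.14. The median without regard to sign was 0.22, beside 0.14 for all tested genes, and 12 of the members differed by less than 0.25 either way. The split depended on the 4× libraries, with 18 negative and 4 positive values and a median of −0.13 without 4×-1, and 10 negative and 12 positive values and a median of 0.037 without 4×-2. The median was also positive, at 0.045, over the 59 detected members without the filter.

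Several members shared a first match, and differences between such members were not tested. Of the 4 genes matched to Peroxidase 4, Cs1g20230 had a log2 difference of −0.66, Cs7g30160 of −0.18 (0.12 without 4×-2) and Cs2g28110 of 0.22, and Cs2g09310 had a single read. Of the 7 genes matched to Peroxidase 15, 5 were tested, 2 with a negative and 3 with a positive difference, and their mean levels ran from 0.554 to 155 RPKM over all 7. In limma 0 genes of either group passed the test, with 1 gene matched to Peroxidase 4 and 0 matched to Peroxidase 15 at an unadjusted p below 0.05 and 0 calls by voom.

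A run of 10 members had closely spaced numbers, from orange1.1t02033 to orange1.1t02046. The table gives no positions, so nothing is said here of where they lie. All 10 were detected, at mean levels from 0.0692 RPKM for orange1.1t02038 to 155 RPKM for orange1.1t02046, and 6 of them were tested, with a median log2 difference of 0.13. The limma fit made 0 calls among these 6, with 1 at an unadjusted p below 0.05 and 0 by voom. Summed over the run the levels were 212 and 185 RPKM in 2× and 243 and 186 RPKM in 4×, so 4×-1 stood above the rest and 4×-2 lay between the diploid libraries.

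The second member of the run by level was orange1.1t02040 (Peroxidase 15), at 16.3 and 14 RPKM in 2× and 20.1 and 14.8 in 4× (log2 difference 0.18, SE 0.16, limma adjusted p = 0.701). Next to orange1.1t02041 came orange1.1t02044, also matched to Peroxidase C3, at 10.7 and 9.56 RPKM in 2× and 11.3 and 6.75 in 4× (log2 difference −0.20, SE 0.213, limma adjusted p = 0.777). The libraries of orange1.1t02044 overlapped, and its difference turned to 0.15 without 4×-2. Genes of such a run may be close in sequence, and reads that map to several places were not counted, so the split of reads among them is uncertain.

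Members described as an apoplastic anionic gaiacol peroxidase numbered 9, with 5 of the tested genes of that run, orange1.1t04469 and 3 genes below the limit among them. They summed to 59.5 and 52.9 RPKM in 2× and 72.4 and 54.1 RPKM in 4×, and had a median log2 difference of 0.023 over the 6 tested genes. The descriptions of 43 members listed Cationic peroxidase 1 and those of 33 listed Cationic peroxidase 2. Both called genes belonged to the former, in which 7 of 14 tested differences were negative. In the latter 7 of 8 were negative (6 of 7 without Cs7g06700), with 0 calls in limma, 3 at an unadjusted p below 0.05 and 0 by voom.

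The summed level of the class differed more between the 2 libraries of 4× than between those of 2×. The 76 peroxidases summed to 456 and 433 RPKM in 2×-1 and 2×-2, and to 479 and 391 RPKM in 4×-1 and 4×-2, so the highest and the lowest sums were both from 4×. As a share of all reads the class took 0.0781% and 0.0748% in 2× and 0.0816% and 0.0675% in 4×. The sums were not tested, since the smallest p of an exact permutation of 2 against 2 libraries is 0.33.

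This spread ran through most members. Of the 22 tested genes 16 were higher in 4×-1 than in 4×-2 (15 of 21 without Cs7g06700), beside 48.6% of all tested genes, and the median ratio of 4×-1 to 4×-2 was 1.17, beside 0.994 for all tested genes. The ratio was 1.27 for orange1.1t02046, 1.36 for orange1.1t02040, 1.51 for orange1.1t02041, 1.47 for orange1.1t02043 and 1.68 for orange1.1t02044, while orange1.1t02045 was at 1. The called genes Cs1g19540 (0.999) and Cs1g18600 (1.01) were level between the 2 libraries.

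**Figure D4:**
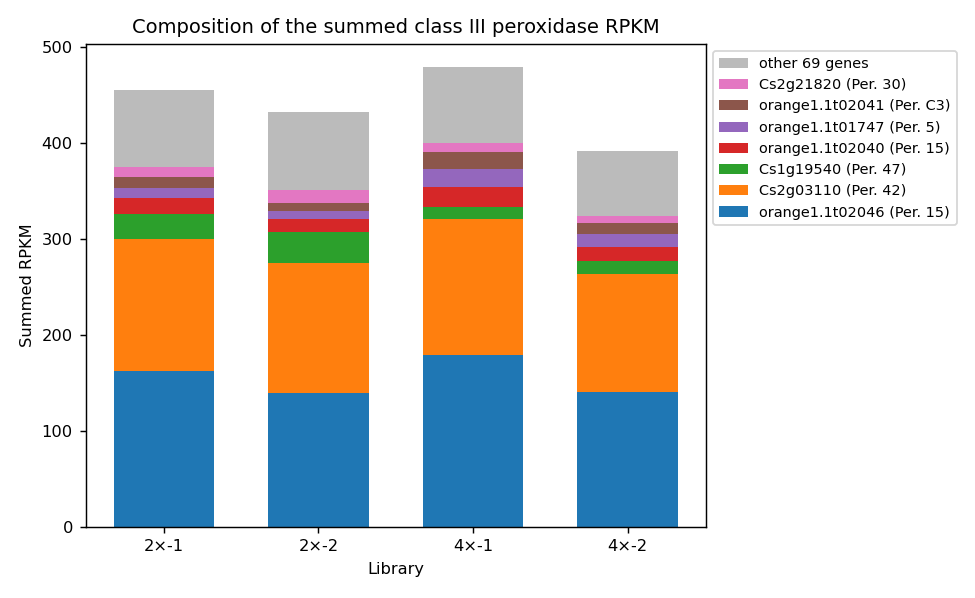
Summed RPKM of the 76 peroxidases in each library, stacked by the 7 members with a mean of at least 10 RPKM and the other 69 genes. The blocks of orange1.1t02046 and Cs2g03110 make up 63.5% to 67.4% of each bar, the bar of 4×-1 is the tallest and that of 4×-2 the shortest, and the block of Cs1g19540 is thinner in both 4× bars.

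The widest gaps within a ploidy were those of Cs7g08070 and Cs5g34200, both of low level. The next, 0.70 on the log2 scale, was that of orange1.1t02044, at a mean of 9.57 RPKM. Cs7g08070 (Peroxidase 6) measured 0.725 and 2.02 RPKM in 2× and 1.14 and 0.762 in 4×, from 7, 20, 11 and 7 reads. Cs5g34200 (Peroxidase 10) measured 0.984 and 0.641 RPKM in 2× and 0.762 and 1.72 in 4×, from 9, 6, 7 and 15 reads. In both genes 1 library stood apart from the other 3, and the log2 differences of −0.29 (SE 0.378) and 0.36 (SE 0.356) were far from the threshold. Cs7g08070 reached the limit for testing only through 2×, with means of 1.37 RPKM in 2× and 0.949 in 4×. Cs5g34200 reached it only through 4×, with means of 0.812 RPKM in 2× and 1.24 in 4×.

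Cs7g30160 (Peroxidase 4) also varied within 4×, at 6.46 and 5.19 RPKM in 2× and 6.35 and 4 in 4× (log2 difference −0.18, SE 0.223). The smallest difference of the 22 was that of Cs4g17860, matched to Peroxidase 25, a lignin-related gene in Arabidopsis, whose log2 value of −0.01 had a 95% interval from −0.32 to 0.30. Cs7g06700, the lariat debranching gene, was level as well at 16.6, 18.6, 18.4 and 16.5 RPKM. The other 3 tested members (orange1.1t04469, orange1.1t02043 and Cs3g21730) overlapped between ploidies and differed by −0.14, 0.22 and 0.17 on the log2 scale.

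Reads were found for 37 further members at mean levels below 1 RPKM, which were not tested. They had between 1 and 40 reads over the 4 libraries, with a median of 6, and 17 of them had at most 5. Their reads summed to 90 and 84 in 2×, and 111 and 82 in 4×. Several were matched to peroxidases known for lignin formation in Arabidopsis, and those named next were chosen after their values were seen.

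Peroxidase 52, a lignin-forming peroxidase of stems in Arabidopsis, was the first match of Cs2g15310. This gene had 19 and 9 reads in 2× and 4 and 8 reads in 4× (read ratio 0.443, counting interval 0.205 to 0.9). The interval leaves out the spread between pools, which was wide in both ploidies, and the difference was not tested. Cs1g24640, matched to Peroxidase 72, had 6 and 3 reads in 2× and 9 and 6 in 4×. Cs1g25930, matched to Peroxidase 64, which in Arabidopsis helps to form the lignin of the Casparian strip, had 3, 4, 4 and 3 reads. At these depths no difference was detectable for Cs1g24640 and Cs1g25930, whose counting intervals ran from 0.707 to 4.47 and from 0.31 to 3.46.

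The largest ratio in this class with at least 10 reads belonged to orange1.1t02225, matched to Peroxidase 53, with 0 and 2 reads in 2× and 8 and 5 reads in 4×. The ratio of 6.73 had a counting interval from 1.52 to 61.4, which leaves out the spread between pools. Gene orange1.1t02036 (Peroxidase 15) had 5 and 5 reads in 2× and 9 and 9 in 4×, and its ratio of 1.86 had an interval from 0.815 to 4.52. There were 12 members with reads in 1 ploidy only, 4 in 2× and 8 in 4×, and none of these had more than 2 reads.

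**Figure D5:**
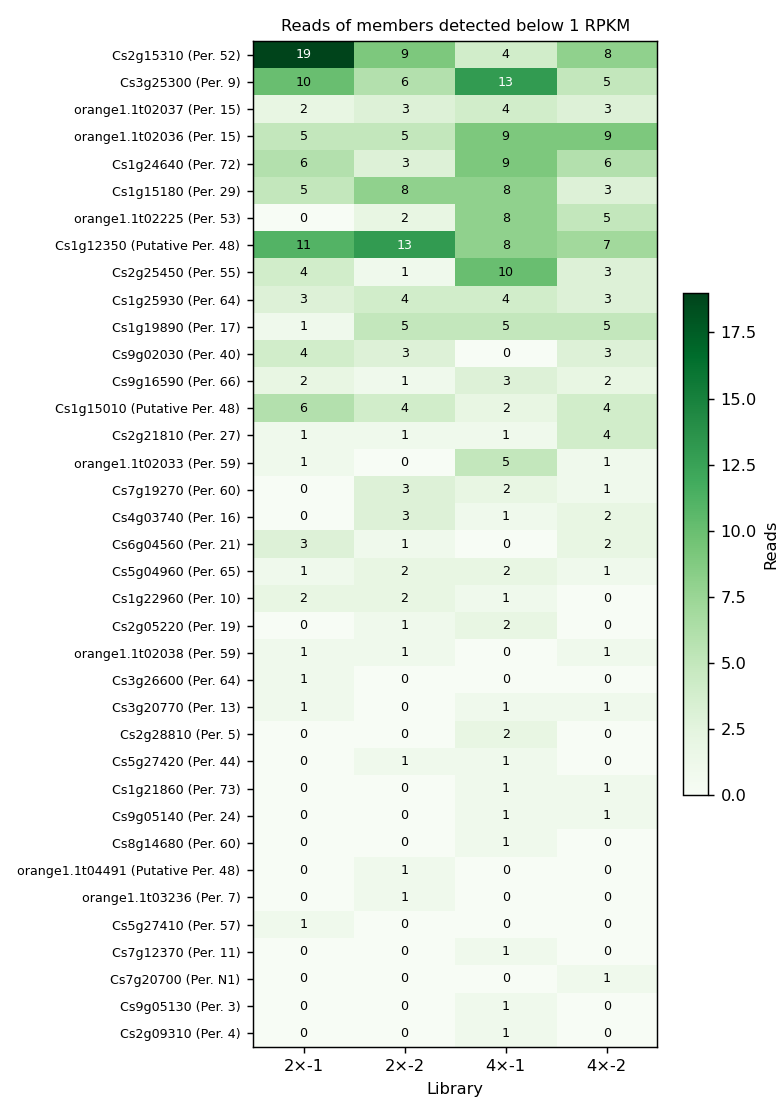
Reads recovered in each library for the 37 members detected at a mean below 1 RPKM, ordered by mean RPKM, with the number of reads in each cell and a darker green for more reads. The highest cell is the 19 reads of Cs2g15310 in 2×-1, and the lower part of the plot holds genes with 1 or 2 reads in all.

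The 18 members at 0 included all 7 whose descriptions add a ferriprotein porphyrin-containing peroxidase, a run of numbers from Cs3g02150 to Cs3g02310 that led with lignin-forming anionic peroxidase. They also included Cs2g09210 and orange1.1t05402, the other 2 genes matched to Peroxidase 52. All 3 genes described as suberization-associated were at 0, namely Cs3g02150 and orange1.1t05402, already counted here, and Cs6g09680. A count of 0 allows up to 3 reads, which for a gene of 1 kb is 0.314 to 0.338 RPKM in these libraries. Expression below that was not detectable at this depth, and reads of *C. junos* that differ from the *C. sinensis* reference or fit several copies would not be counted.

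Other genes of wall phenolics and of hydrogen peroxide were drawn from lists of description words. The laccases, copper enzymes that also couple lignin units, had 7 tested genes of 36 and a median log2 difference of −0.44. Of these 7 genes 1 was called in limma, beside 1.39% of all tested genes, and voom called 1. At an unadjusted p below 0.05 there were 4, beside 13.3% of all tested genes. The gene called in limma, Cs2g29090, led with L-ascorbate oxidase and had laccases as further matches. It measured 11.4 and 15.6 RPKM in 2× and 7.17 and 5.61 in 4× (log2 difference −1.01, SE 0.185, limma adjusted p = 0.0375). It was lower in both 4× libraries, as was Cs1g19540.

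Of 206 genes for the enzymes of monolignol synthesis, the route that makes the substrates of these peroxidases, 98 were tested, 2 were called higher and 1 lower, and the median was 0.01. All 3 came from the word pattern for caffeic acid O-methyltransferase, which also took in other O-methyltransferases. They were orange1.1t02091, at 1.21 and 1.19 RPKM in 2× and 6.05 and 5.28 in 4× (log2 difference 1.85, limma adjusted p = 0.0051), orange1.1t02085 (1.74, adjusted p = 0.0157) and Cs2g16060 (−0.99, adjusted p = 0.0466), the last of which led with orcinol O-methyltransferase. Behind orange1.1t02085 were 10 and 6 reads in 2× and 39 and 36 in 4×. Its 2× mean of 0.754 RPKM was under the limit for testing, which it reached only through 4×. Phenylalanine ammonia-lyase, the entry enzyme, had 0 calls among 3 tested genes in limma, 0 at an unadjusted p below 0.05 and 0 by voom. Over the 98 tested genes of the monolignol list, 20 were at an unadjusted p below 0.05 and voom called 5.

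The extensin words gave 10 tested genes of 36 with 2 calls in limma, both lower in 4×, beside 1.39% of all tested genes. These were Cs8g05230 (log2 difference −0.60, limma adjusted p = 0.0401) and orange1.1t05075 (−0.68, adjusted p = 0.0407). Cs8g05230 led with an uncharacterized protein and had leucine-rich repeat extensin-like proteins as further matches, and orange1.1t05075 led with a glycopeptide receptor. At an unadjusted p below 0.05 there were 4 of the 10, beside 13.3% of all tested genes, and voom called 2. Dirigent proteins, which steer phenoxy coupling, had 0 calls among 4 tested genes in limma, 0 at an unadjusted p below 0.05 and 0 by voom, with Cs6g03750 the highest at 19.1 to 22.1 RPKM.

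Among the genes that lead to hydrogen peroxide, directly or not, respiratory burst oxidases had 0 calls among 6 tested genes in limma. At an unadjusted p below 0.05 there were 3 of them, and 0 were called by voom. Their most abundant gene, Cs3g01120, led with ferric reduction oxidase. Germin-like proteins had 1 of 6 called, Cs5g07750, at 2.27 and 2.66 RPKM in 2× and 0.754 and 0.477 in 4× (log2 difference −1.42, limma adjusted p = 0.0468). Superoxide dismutases had 1 of 12 called, orange1.1t05755, a fragment of the copper/zinc form, at 4.36 and 4.87 RPKM in 2× and 1.24 and 0.655 in 4× (log2 difference −1.85, limma adjusted p = 0.0125). Few reads stood behind both, with 15 and 18 in 2× and 5 and 3 in 4× for Cs5g07750. For orange1.1t05755 there were 7 and 8 reads in 2× and 2 and 1 in 4×. Their 4× means of 0.616 and 0.949 RPKM were under the limit for testing, which they reached only through 2×. By voom 0 germin-like genes and 0 superoxide dismutases were called. At an unadjusted p below 0.05 there were 3 germin-like genes and 1 superoxide dismutase, beside 13.3% of all tested genes.

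Among the enzymes that remove hydrogen peroxide, limma and voom called 0 of 6 catalases, 7 ascorbate peroxidases, 6 glutathione peroxidases and 14 peroxiredoxins that were tested. At an unadjusted p below 0.05 these lists had 2, 1, 2 and 2 genes. Their most abundant genes were Cs3g27290 for catalase at 740 to 892 RPKM, Cs8g17370 for ascorbate peroxidase at 572 to 662 RPKM and Cs7g06520 for glutathione peroxidase at 369 to 432 RPKM, which is also the highest gene under the peroxiredoxin words. In every library Cs3g27290 and Cs8g17370 were each above the summed level of the 76 class III peroxidases.

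Markers of the leaf's cell types were read beside the calls of Cs1g19540 and Cs1g18600. The words for xylem and secondary wall took in 63 genes, of which 13 were at 0, summing to 5578 and 5231 RPKM in 2× and 5594 and 5732 in 4×. Of the 27 tested, 2 were called, both higher in 4× and both led by xylem cysteine proteinase (Cs2g27790, 80.6 and 63.1 RPKM in 2× and 149 and 137 in 4×, and Cs2g27860, log2 difference 1.19). The descriptions of these 2 genes also name other cysteine proteinases, such as Vignain, so the words are not specific to xylem. At an unadjusted p below 0.05 there were 10 of the 27 (37%), beside 13.3% of all tested genes, and voom called 3. The median log2 difference over the 27 was 0.046. The mesophyll words gave 1 call among 15 tested genes in limma (Cs4g03580, log2 difference −0.89, mean level 5.27 RPKM) and 2 by voom. The median log2 difference over these 15 genes was 0.23. The mesophyll list summed to 15111 and 18491 RPKM in 2× and to 17810 and 18049 RPKM in 4×. Limma and voom gave 0 calls among 47 genes under phloem words, 2 under guard cell words and 8 under epidermis words, with 2, 0 and 0 genes at an unadjusted p below 0.05. The part of these cell types in the difference of the peroxidases was not tested.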

How the data were processed

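RNA-seq of 4 libraries of leaves was analysed, 2 of 2× and 2 of 4×, grouped by the sample labels. The authors deposited RPKM per gene, computed from uniquely mapped 50 bp reads after TopHat 2.0.9 had placed them on the genome of *C. sinensis* (the submitters' processing notes also name HTSeq 0.5.4p3 and Bowtie2 2.0.6). The genome build, the annotation and whether counting used strand were not given in the sources at hand, so overlapping genes cannot be told apart. Reads were recovered from the deposited RPKM as the smallest whole numbers (tolerance 0.001 reads) for all 24073 detected genes. They amount to 97.9% of each library total and may lack a factor shared by the 4 counts.

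Values were tested as log2(RPKM + 0.5) in limma 3.58.1 under R 4.3.3, with trended eBayes. The Benjamini-Hochberg adjustment ran over the 16157 genes that averaged 1 RPKM or more. Fold changes on this scale understate those of low genes. Intervals of read ratios are exact binomial and cover counting error only. Tables and plots came from scipy 1.17.1, matplotlib 3.10.9, numpy 2.4.6 and pandas 2.3.3 under Python 3.11.15, and limma and the read recovery were tested on simulated data. Replicates differed beyond sampling noise, with chi-squares of 5.85 (2×) and 4.42 (4×) per degree of freedom, so each counted as 1 sample.

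Members were chosen by description words, and members and lists were chosen with earlier results of these data known. Named were the called members, those averaging 10 RPKM or more, the 5 largest increases and 5 largest decreases without overlap, the 5 with the widest gap within a ploidy, any member with at least 5 reads in 1 ploidy only, and in each list the called genes or else the most abundant one. Alternatives were pseudocounts of 0.1 and 1, no filter, a limit of 3 RPKM, median-of-ratios scaling, a replicate block, robust eBayes, voom (limma) on recovered reads, and leaving out each library.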

Additional observations from a re-analysis of the deposited data

How the results depend on the processing

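Against 224 calls over all genes, 404 were made under voom on recovered reads, 0 without the filter on low values (0 members as well) and 832 with the replicate block. With 1 library left out there were 77 to 264 calls, and 1 to 2 members among them. Under median-of-ratios scaling 1 member was called, Cs1g19540. The replicate block called 5 members, adding Cs5g32270, orange1.1t01747 and orange1.1t02041. Same-numbered libraries share only a number in the labels, and their deviations from the ploidy means were correlated at −0.0462 over genes. The cause of these shifts was not tested. The median of the members, −0.10, was 0.045 without the filter and between −0.13 and 0.037 with 1 library left out. For the 16 named members, 178 values from the alternatives had the same call as with all libraries and the stated settings, 7 lost it and 4 gained it. The direction turned for 8 of the 16 with 1 library left out, none of them called: Cs2g03110, Cs5g34200, Cs7g06700, Cs7g08070, Cs7g30160, orange1.1t02040, orange1.1t02044 and orange1.1t02046. Depth limits the 37 members under 1 RPKM.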
